A study of Mus musculus and Homo sapiens with 33 samples.

Results

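The BCL2 family decides whether the outer mitochondrial membrane stays closed or is opened to release cytochrome c, the step that commits most cells to intrinsic apoptosis. Prosurvival proteins such as BCL2 hold the pore-forming effectors BAK1 and BAX in check. BH3-only proteins can free the effectors by binding into the groove of the prosurvival proteins. Lung cancers are known for high MCL1 and BCL-XL (the product of BCL2L1), and transcription is one of several layers at which BH3-only proteins are controlled. The 10 genes described here were chosen by name, with earlier results of these data known. They are the prosurvival genes BCL2, BCL2L1, MCL1 and BCL2A1, the effector gene BAK1, and the BH3-only genes BCL2L11, PMAIP1, BID, BIK and BMF. All 10 have a row among the 20347 genes of the human H358 table. Their mouse counterparts have 0 rows among the 2509 of the LLC1 overexpression table.

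Total RNA was sequenced from H358, a human line of non-small-cell lung cancer, with overexpression of cEMSY, a circular RNA of the EMSY gene, or with an empty vector (EV), in 3 libraries per group. LLC1, a mouse lung carcinoma line, was sequenced with cEmsy overexpression or an empty vector in the same numbers, while its drug-treated and DMSO libraries were profiled for circular RNAs. The labels give the empty vector lines the genotype WT and name no drug treatment, dose or time for either group. How the circular RNA was delivered, and whether the lines were clones or pools, is not given in the sources used here. Whether the libraries of a group stem from separate cultures is not stated, and the spread behind every p-value may therefore be technical. The question was how this circular RNA acts in tumour cells and how it is tied to immunogenic cell death.

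For H358 the values come from the comparison computed by the authors, with no value per library used here and an unknown depth. In the authors' deposited table the target gene EMSY rose by 3.84 ± 0.07 (log2, SE). This value covers the whole gene, so whether the circle, linear EMSY or both rose is unknown. Of 10 lung epithelial markers 7 were listed, among them KRT7, KRT8 and KRT18 at mean signals of 31920, 41881 and 38482 in the authors' deposited table. EPCAM stood at 40.7 there, and NKX2-1, SFTPB and SFTPC had no row and so were not analysed here. Of these 7 markers 5 fell and 0 rose at an adjusted p under 0.05, where 16.8% of all genes fell and 15.6% rose. KRT19 fell by 3.91 (SE 0.31) and KRT7 fell by 1.05 (SE 0.06) on the log2 scale in the authors' deposited table. Of the 13 leukocyte markers 6 were listed, with summed levels derived as 685 in cEMSY cells and 896 in EV cells, most of it CD68. CD4 and CD74 rose by 7.39 ± 1.28 and 3.16 ± 0.89 and CD68 fell by 0.75 (SE 0.13), all log2 values in the authors' deposited table; the decrease of KRT19 and the increase of CD4 are larger in size than the change of any BCL2 family member. The defining leukocyte marker PTPRC had no row and so was not analysed here. Of the 8 endothelial, 8 fibroblast and 6 red blood cell markers 3, 4 and 0 were listed, with summed levels of 5.20 and 100.5 in cEMSY cells and 9.12 and 71.6 in EV cells for the endothelial and fibroblast lists. The part of any of these markers in the results below was not tested.

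In H358 cells with cEMSY overexpression, 2 BH3-only genes rose, BMF and PMAIP1, while the prosurvival genes BCL2A1, BCL2 and MCL1 and the BH3-only gene BID fell. BMF was 8.90-fold and PMAIP1 2.25-fold as high as in EV cells, and BCL2A1 stood at 0.236 of its EV level. BCL2L1, BAK1, BCL2L11 and BIK did not pass. A gene was called when its adjusted p in the authors' deposited table was under 0.05. By that rule 6 of the 10 members were called, where 32.4% of the 19154 genes with an adjusted p were. By their medians the members had a higher signal and a smaller error than all genes. Their median mean signal was 356 and their median standard error 0.148, against 197 and 0.208 over all genes with an adjusted p. BMF, BCL2A1, BCL2 and BIK went the other way in both, with standard errors of 0.42, 0.27, 0.25 and 0.89. The part of signal and error in the share called was not tested. In the upward direction 2 of 10 members passed against 15.6% of all genes, and in the downward direction 4 of 10 against 16.8%. The median log2 fold change was -0.24 over the members and 0.03 over all genes with an adjusted p. With a further demand of at least a 2-fold change, which is how the authors marked genes as significant, 3 members passed (BMF, PMAIP1 and BCL2A1), where 9.47% of all genes did.

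**Figure D1:**
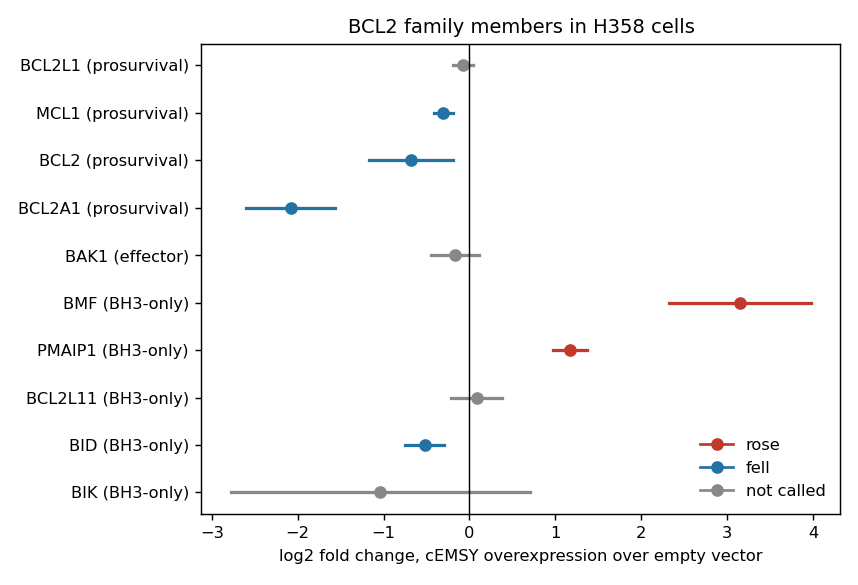
Log2 fold change of each BCL2 family member in H358 cells, cEMSY overexpression over empty vector, with 95% intervals computed from the authors' standard errors, grouped by role. BMF and PMAIP1 lie right of 0, BCL2A1, BCL2, BID and MCL1 lie left of it, and the intervals of BCL2L1, BAK1, BCL2L11 and BIK include 0.

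The prosurvival members lie on one side of 0 or close to it. Of these 4 genes 3 were lower and 0 higher, where 16.8% of all genes fell and 15.6% rose. BCL2A1 (ENSG00000140379.9) encodes a short-lived prosurvival protein that blocks BAK1 and is known as a target of NF-kB. Its mean signal over the 6 libraries was 108, and it fell by 2.08 on the log2 scale (SE 0.27) with an adjusted p of 8.92e-14, all in the authors' deposited table. The levels that this mean and fold change imply, for groups of equal size, are 41.1 in cEMSY cells and 174 in EV cells. The 95% interval of the ratio of cEMSY to EV runs from 0.165 to 0.338, so that even its upper end lies below a halving of the gene.

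BCL2 (ENSG00000171791.14), the founding prosurvival gene, was listed at about the same mean signal, 106 in the authors' deposited table, and fell by 0.68 on the log2 scale (SE 0.25; adjusted p = 0.0242). Its derived levels were 81.4 in cEMSY cells and 130 in EV cells. The interval of the ratio reaches from 0.444 to 0.878, so the size of the decrease is known only loosely. MCL1 (ENSG00000143384.14) encodes an unstable prosurvival protein that holds BAK1 and is the main partner of the BH3-only protein NOXA. It carried the highest mean signal of the 10 members, 5271, and fell by 0.31 (SE 0.06; adjusted p = 6.39e-07) in the authors' deposited table. Its derived levels were 4712 in cEMSY cells and 5829 in EV cells, a ratio of 0.808. This was the smallest change among the 6 called members, and the most precise.

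BCL2L1 (ENSG00000171552.14), whose product BCL-XL guards both BAK1 and BAX, was listed at a mean signal of 4632 and a log2 fold change of -0.07 (SE 0.06; adjusted p = 0.387) in the authors' deposited table. Its derived levels were 4515 in cEMSY cells and 4748 in EV cells. The interval of the ratio, 0.877 to 1.03, does not reach down to the ratio of 0.808 found for MCL1. The gene-level value does not separate the long transcript from the short proapoptotic splice form.

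BAK1 (ENSG00000030110.14), which oligomerises into the membrane pore, was the effector among the members. It had a mean signal of 344 and a log2 fold change of -0.17 (SE 0.14; adjusted p = 0.408) in the authors' deposited table. The derived levels were 323 in cEMSY cells and 364 in EV cells, with an interval of the ratio from 0.730 to 1.08.

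**Figure D2:**
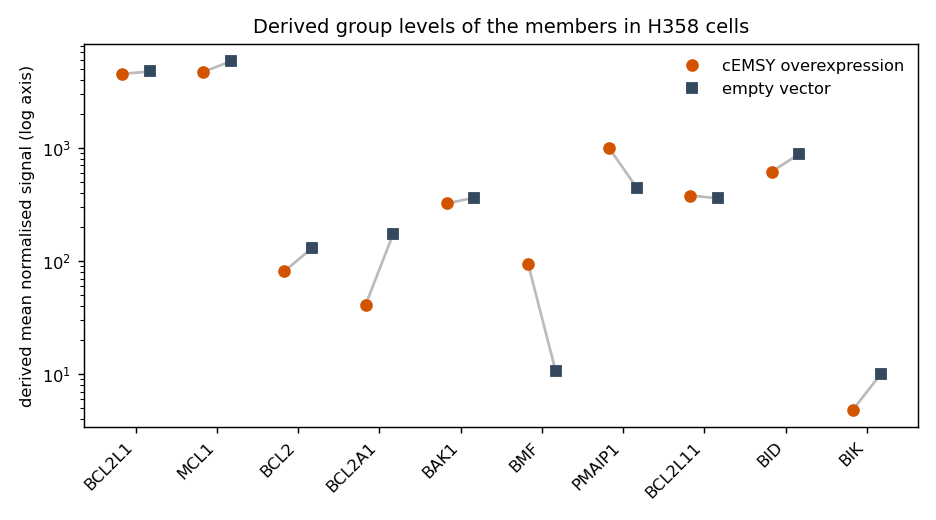
Derived mean normalised signal of each member in cEMSY-overexpressing (circles) and empty vector (squares) H358 cells, computed from the authors' mean signal and fold change, on a log axis. Lines join the groups of a gene; BMF stands at 94.5 with overexpression and 10.6 with empty vector, BCL2A1 at 41.1 and 174. Signals are not divided by gene length, so heights are not comparable between genes.

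Among the BH3-only members 2 of 5 rose, 1 fell and 2 did not pass, where 15.6% of all genes rose and 16.8% fell. BMF (ENSG00000104081.14) encodes a protein that is held at the cytoskeleton through dynein light chain and binds prosurvival proteins when released. Its log2 fold change of 3.15 (SE 0.42; adjusted p = 1.67e-12) was the largest in size of the 10 members in the authors' deposited table, on a mean signal of 52.6. The derived levels were 94.5 in cEMSY cells and 10.6 in EV cells. The interval of the ratio runs from 5.01 to 15.8, so the size is loosely known. With direction counted, the lower end of this interval lies above the upper ends of all 9 other members. In size alone, the log2 intervals of BMF (2.33 to 3.98) and BCL2A1 (-2.60 to -1.56) overlap. Among all 19154 genes BMF ranked 489 by the size of its log2 fold change.

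PMAIP1 (ENSG00000141682.12) encodes NOXA, a small BH3-only protein that binds MCL1 and BCL2A1 and is known to be induced by interferon regulatory factors. At a mean signal of 719 it rose by 1.17 ± 0.10 on the log2 scale (SE; adjusted p = 1.45e-28) in the authors' deposited table. Its derived levels were 995 in cEMSY cells and 442 in EV cells, and the interval of the ratio runs from 1.96 to 2.59. By the size of its statistic PMAIP1 ranked 339 of 19154 genes and stood first among the members, although 2961 by the size of its fold change.

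BID (ENSG00000015475.19), which links death receptors to mitochondria once caspase-8 cleaves its product, fell by 0.52 (SE 0.11; adjusted p = 3.17e-05) on a mean signal of 751 in the authors' deposited table. Its derived levels were 617 in cEMSY cells and 886 in EV cells, a ratio of 0.696. BID was the called BH3-only member that was lower with cEMSY, as were the called prosurvival members.

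BCL2L11 (ENSG00000153094.24) encodes BIM, which binds all main prosurvival proteins, and stood at a log2 fold change of 0.09 (SE 0.15; adjusted p = 0.735) on a mean signal of 369 in the authors' deposited table. The derived levels were 380 in cEMSY cells and 358.2 in EV cells, with an interval of the ratio from 0.864 to 1.30. BIK (ENSG00000100290.3), whose product sits mainly at the endoplasmic reticulum, had a low signal, with a mean signal of 7.40, and a log2 fold change of -1.04 (SE 0.89; adjusted p = 0.413) in the authors' deposited table. Its derived levels were 4.84 in cEMSY cells and 9.96 in EV cells. The interval of the ratio for BIK spans from 0.145 to 1.63.

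What could be seen differed between members with their signal. The standard error of the log2 fold change ranged from 0.06 for MCL1 to 0.89 for BIK, with a median of 0.15. The median over all genes with an adjusted p was 0.21. A gene passed when its fold change reached 2.40 times its standard error, so that at these errors BCL2L1 would have been called at a 1.10-fold change, BAK1 at 1.27-fold and BCL2L11 at 1.29-fold. BIK would have needed 4.40-fold. A moderate change of BIK was therefore not detectable, while for BCL2L1, BAK1 and BCL2L11 changes as large as that of PMAIP1 lie outside the intervals.

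**Figure D3:**
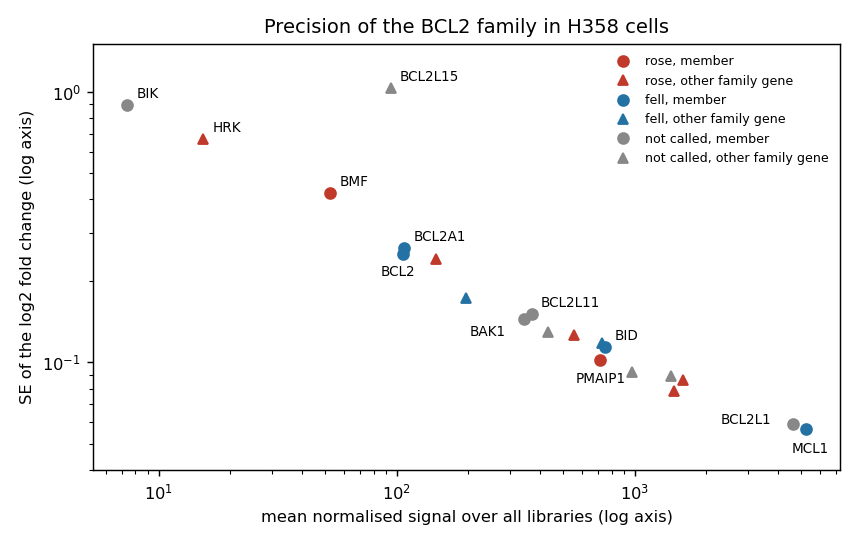
Standard error of the log2 fold change against mean normalised signal for the members (circles) and other BCL2 family genes (triangles) in H358 cells, both on log axes, coloured by call. The error falls with signal, from 0.89 for BIK to 0.06 for MCL1; BCL2L15 stands above genes of similar signal at 1.03.

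Because BH3-only and prosurvival proteins act by binding each other, the transcript ratios of all 20 pairs of a BH3-only and a prosurvival member were set out, taking the standard errors of the 2 genes as independent. The log2 change of a ratio is the difference of the log2 fold changes. Its 95% interval lay above 0 in 12 pairs, below 0 in 1 pair and included 0 in 7. The pairs share genes and restate the fold changes given above, so they are not separate observations. The intervals were not adjusted over the 20 pairs, and no share over pairs of other genes was computed. All 4 pairs of BMF and all 4 of PMAIP1 were above 0; both genes rose, and no prosurvival member did. For PMAIP1 over MCL1 the change of the log2 ratio was 1.48 (SE 0.12), and for PMAIP1 over BCL2A1 it was 3.25 (SE 0.28). NOXA is known to bind the products of both. For BMF over BCL2 the change was 3.83 (SE 0.49).

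BCL2L11 did not pass alone, at a log2 fold change of 0.09. Its log2 ratio changed by 0.39 (SE 0.16) to MCL1, 0.76 (SE 0.29) to BCL2 and 2.17 (SE 0.30) to BCL2A1, which restates the decreases of those genes, and by 0.16 (SE 0.16) to BCL2L1, with an interval that includes 0. BID over BCL2L1 was the pair below 0, at -0.45 (SE 0.13). For BIK the intervals of all 4 pairs included 0. These are ratios of transcripts, and protein was not measured.

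**Figure D4:**
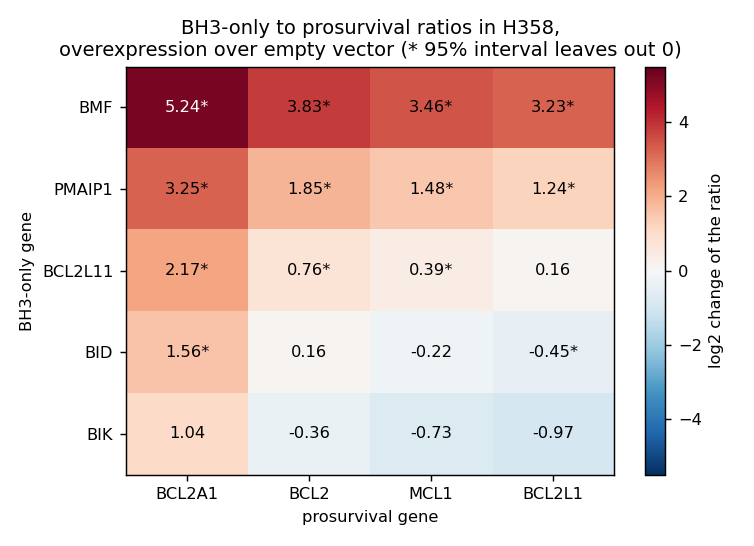
Log2 change of the transcript ratio of each BH3-only member (rows) to each prosurvival member (columns) in H358 cells, cEMSY overexpression over empty vector. An asterisk marks the 13 pairs whose 95% interval, not adjusted over the pairs, leaves out 0. The values run from 5.24 for BMF over BCL2A1 to -0.97 for BIK over BCL2L1, and pairs in a row or column share a gene.

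Further genes of the family were read from a list of 13, of which 11 had a row, with a median log2 fold change of 0.21. Of these 5 rose, 2 fell and 4 did not pass, where 15.6% of all genes rose and 16.8% fell. The BH3-only genes HRK, BBC3 (which encodes PUMA) and BAD rose by 1.63 ± 0.67, 1.22 ± 0.24 and 0.40 ± 0.13 on the log2 scale (SE) in the authors' deposited table. HRK was listed at a mean signal of 15.4 with an adjusted p of 0.0467 there, and on fold changes centred on the median of all genes its adjusted p was 0.0535. BNIP3L, a mitophagy receptor, rose by 0.76 ± 0.09 and the effector gene BAX by 0.22 ± 0.08 on the log2 scale (SE) in the authors' deposited table. The effector-like gene BOK and the prosurvival gene BCL2L2 fell by 0.46 (SE 0.17) and 0.35 (SE 0.12), again log2 values in the authors' deposited table. BCL2L2 shares exons with the read-through gene BCL2L2-PABPN1, so its value is uncertain.

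Counting members and these genes together by role, 5 of 8 BH3-only genes rose and 1 fell, with a median log2 fold change of 0.79. Of 5 prosurvival genes 0 rose and 4 fell, with a median of -0.35. Of 3 effectors 1 rose, 1 fell and 1 did not pass. Set beside the backgrounds of 15.6% rising and 16.8% falling, these are counts in small groups of genes and were not tested as groups.

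Of a list of 15 genes of the apoptosome, the caspases, their inhibitors and the VDAC channels of the outer mitochondrial membrane, 7 fell and 1 rose in H358, with a median log2 fold change of -0.28, where 16.8% of all genes fell and 15.6% rose. In the authors' deposited table VDAC3, among the 7, fell by 0.31 on the log2 scale (SE 0.06). CASP9, the initiator caspase of the apoptosome, rose by 0.84 ± 0.19 in the authors' deposited table. BIRC5 (survivin, also a mitotic protein) and CYCS (cytochrome c) fell by 0.62 and 0.50 (SE 0.08 and 0.07) in log2 units, also in the authors' deposited table. In the death receptor arm, which feeds into BID, 2 of 11 listed genes rose and 3 fell, against 15.6% and 16.8% of all genes. The ligand gene TNFSF10 (TRAIL) rose by 3.03 ± 0.50 and the receptor gene FAS by 0.71 ± 0.17, while the caspase-8 inhibitor gene CFLAR, the adaptor gene FADD and the receptor gene TNFRSF10B fell by 0.58, 0.44 and 0.19 (SE 0.09, 0.11 and 0.07) in the authors' deposited table.

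Partners that bind the family or set its stability went both ways, 3 of 10 higher and 3 lower, against 15.6% and 16.8% of all genes. USP9X, a deubiquitinase of MCL1, rose by 0.67 ± 0.07 in the authors' deposited table. DYNLL2, the light chain that holds BMF, fell by 0.35 (SE 0.09), and the 14-3-3 genes YWHAZ and YWHAE, whose products hold BAD, fell by 0.40 and 0.38 (SE 0.05 each) in the authors' deposited table. Of 14 transcription factor genes known to act on the family 2 rose and 4 fell, against the same 15.6% and 16.8%. Among them NFKB1 fell by 0.73 (SE 0.11), JUN by 0.75 (SE 0.08) and MITF, a known activator of BCL2A1 in melanocytes, by 1.03 (SE 0.17), and DDIT3 (CHOP) rose by 0.90 ± 0.26 in the authors' deposited table.

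In LLC1 no BCL2 family gene could be followed. The authors' LLC1 table holds only rows they had chosen as changed, and none of the 12 annotated mouse counterparts of the members (Bcl2a1 has several copies in mouse), nor any other of the 25 family genes looked up, has a row, matched by symbol and by gene identifier. A gene without a row was not analysed here, and its change in LLC1 is unknown. None of the 472 circular RNAs of the drug panel overlaps any of these 25 loci on the mm10 annotation. The overlap to be expected for other sets of loci was not computed, so nothing about the family follows from this.

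Of the surrounding pathway 5 genes were listed in LLC1, and all 5 passed in limma. The control columns of this table are not titled as the labels title the EV libraries, and were taken as EV because the labels of those libraries name this table. Fas, a death receptor gene, had signals of 4.72, 4.21 and 4.85 in the cEmsy libraries and 0.506, 0.207 and 0.292 in the EV libraries. The difference was 2.07 ± 0.10 (SE) on the log2(value + 1) scale (limma, adjusted p = 4.55e-08), a scale that understates changes of low genes. Apaf1, the scaffold of the apoptosome, stood at 8.80, 8.32 and 8.65 with cEmsy and 4.32, 4.19 and 3.99 with EV. Every cEmsy library lies above every EV library for both genes, but groups do not overlap in 99.7% of the 2509 rows of this table.

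The caspase gene Casp6 stood at 8.22 ± 0.58 with cEmsy and 3.80 ± 0.53 with EV (SD, n = 3 each). Fadd, the death receptor adaptor, fell to 1.08 ± 0.13 with cEmsy, against 2.52 ± 0.10 with EV, and Birc5 to 6.96 ± 0.90, against 58.8 ± 1.33 (SD, n = 3 each). All 3 passed in limma, at adjusted p-values of 6.69e-06, 1.02e-05 and 2.66e-09 for Casp6, Fadd and Birc5. Since 100% of the 2111 rows tested in this table passed, to 3 digits, these calls follow the authors' choice of rows.

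The markers listed in this table also moved, as groups do not overlap in 99.7% of its rows. Listed were 1 of 6 red blood cell, 3 of 13 leukocyte, 1 of 8 fibroblast and 2 of 10 lung epithelial markers. The fibroblast marker Col1a2 stood at 0.074 ± 0.04 with cEmsy and 0.221 ± 0.06 with EV (SD, n = 3 each), too low to be fitted. The red blood cell marker Hba-a1 stood at 13.8 ± 3.96 with cEmsy and 0.155 ± 0.07 with EV, and the leukocyte markers Cd68, Lyz2 and Cd74 stood at 7.45 ± 1.40, 1.49 ± 0.16 and 0.102 ± 0.02 with cEmsy, against 2.46 ± 0.23, 0.597 ± 0.09 and 1.38 ± 0.04 with EV (SD, n = 3 each). The lung epithelial markers Krt7 and Napsa stood at 2.88 ± 0.25 and 2.29 ± 0.72 with cEmsy, against 0.316 ± 0.04 and 0.903 ± 0.19 with EV (SD, n = 3 each). Their part in the 5 pathway genes was not tested.

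**Figure D5:**
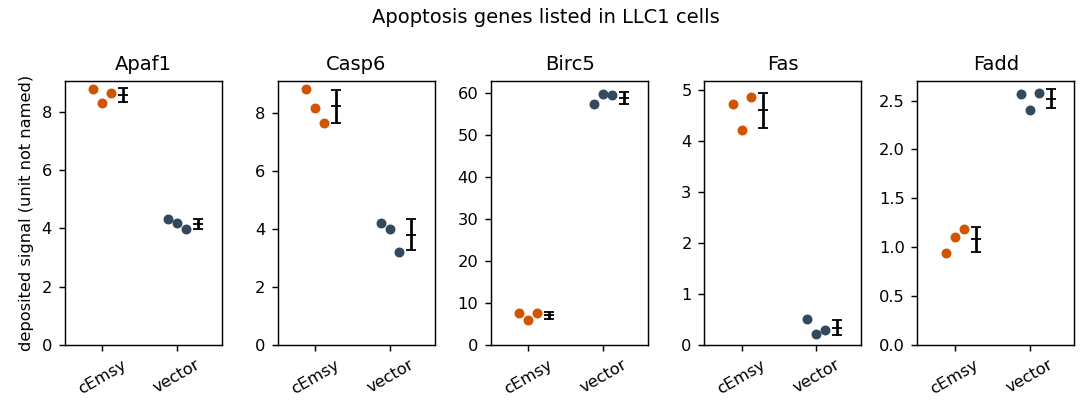
Deposited signal of the 5 listed apoptosis genes in LLC1 cells, with cEmsy overexpression (orange) left of empty vector (dark), 1 point per library and the mean ± SD (n = 3) beside it. Apaf1, Casp6 and Fas are higher and Birc5 and Fadd lower in all 3 cEmsy libraries than in any empty vector library, as groups do not overlap in 99.7% of all rows of the table.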

How the data were processed

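Per the labels' protocols, libraries were directional and depleted of ribosomal RNA. Tools listed by the submitters' processing notes are STAR, featureCounts, FastQC and MultiQC, with hg19 and mm10 as builds and no roles given. For H358 the authors deposited columns of mean signal, log2 fold change, standard error and test statistic (both scores) and p-values, per the file headers. Neither the tool behind them nor strand use in counting is given in the sources used here. This statistic equalled the fold change over its error within 0.001 in all 20347 genes, the p-value was its two-sided normal p in all 20338 genes with one, and 1193 genes without an adjusted p got no call. Intervals (95%), ratios and group levels were computed from these columns with Python 3.11.15 and scipy 1.17.1; the group levels assume equal groups and a fold change that was not shrunk. In LLC1 the authors deposited a signal whose unit is not named, for rows they chose. It was fitted with limma 3.58.1 in R 4.3.3 (mean-variance trend, log2(value + 1), rows with a mean of 0.5 or more, Benjamini-Hochberg adjustment over all 2111 rows, threshold 0.05). Its control columns are named NC, and were taken as the empty vector group because the labels of those libraries name this table; they are not linked to single libraries. The fits were tested on simulated data. No counts were in the files, so no count test was run and depth is unknown. Members and lists were chosen with earlier results of these data known. All 10 members are named. Of each further list at most the 4 called genes with the largest fold change per line are named, with others only where a count of 5 or fewer falls on them. No human sequence or coordinates were used. Some genes of the further lists are not reported here by name.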

Additional observations from a re-analysis of the deposited data

How the results depend on the processing

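Asking for at least a 2-fold change besides the adjusted p left 3 members called in H358 (BCL2, MCL1 and BID were lost). By that rule 9.47% of all genes were called. Of the listed genes it left 2 of 11 in the other BCL2 family and 1 of 11 in the death receptor list. It left 1 of 14 transcription factor genes, 0 of 15 in the apoptosome list and 0 of 10 partners. Adjusting over every gene with a p-value, testing only genes with a mean signal of 10 or more (which leaves out BIK) and centring fold changes on the median each gave 6 called members, 2 higher and 4 lower. For the further lists these 3 settings were added after seeing the data, and they moved no count of calls beyond 1.5 times. In LLC1 the directions and calls of Fas, Fadd, Apaf1, Casp6 and Birc5 were kept in all 10 refits, which changed the pseudocount to 0.1, the filter, the centring or the trend or left out 1 library; since nearly every row of that table passes by the authors' choice, this says little about stability. The log2 fold change of Fas was 2.07 with a pseudocount of 1 and 3.49 with one of 0.1. No paired analysis was possible because the H358 comparison holds no value per library and the LLC1 control columns are not linked to numbered libraries; for the same reason leaving out libraries, a second count tool and another normalization were not run in H358. The difference between lines was not run, since no member is listed in LLC1. Low signal limits BIK in H358.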

Other observations

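Genes outside the fixed lists that carry BCL2 in their name or description were looked at after their values were seen. BCLAF1, a splicing and transcription regulator first found as a partner of BCL2-like proteins, fell by 0.48 (SE 0.11; adjusted p = 0.000124) in the authors' deposited table. BNIP2 fell by 0.31 (SE 0.09; adjusted p = 0.00184) in the authors' deposited table. The read-through gene BCL2L2-PABPN1 stood at 0.68 (SE 0.44; adjusted p = 0.257) there, while BCL2L2 was lower.

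BCL2L15 had a log2 fold change of -0.31 with a standard error of 1.03 at a mean signal of 94.6 in the authors' deposited table. BCL2 and BCL2A1, at mean signals of 106 and 108, had standard errors of 0.25 and 0.27 there. The H358 libraries thus differed more within groups for BCL2L15 than for those 2 members, and which library differs could not be read from the comparison.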
